A study of Mus musculus with 2 samples.

Results

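The genes described here are 10 genes of mitochondrial redox balance and peroxide defence, chosen by symbol from the 32245 gene symbols counted: Nnt, Prdx3, Txnrd2, Txn2, Gpx1, Gpx4, Sod2, Mgst1, Gsta4 and Cat. They were followed in the steroid-producing cells of the mouse adrenal cortex, by zone, and in the other cell classes of the gland, at both ages studied. All 10 had UMIs in both libraries. Adrenal glands came from female C57BL/6J mice of genotype SF1-Cre+;Znrf3Fx/Fx, in which Cre under SF1 control acts on floxed Znrf3 in SF1-expressing cells, with 2 adrenals pooled at 6 weeks, a stage of hyperplasia, and 3 pooled at 9 weeks, a stage of regression. Both ages share strain, sex and genotype, and no control genotype was analysed here. After enzymatic dissociation and red cell lysis, cells that were positive for the DNA dye Vybrant DyeCycle Ruby and negative for DAPI were sorted and captured for droplet sequencing of transcript 3′ ends, so each level is a count of unique molecular identifiers (UMIs). There was 1 library per age, so no p-value is given, and every interval below covers counting error only.

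Steroid synthesis passes electrons to mitochondrial cytochrome P450 enzymes, and electrons that leak from that chain form superoxide. Superoxide dismutase turns superoxide into hydrogen peroxide, which peroxiredoxins, glutathione peroxidases and catalase then remove. Peroxiredoxin 3 draws its electrons through thioredoxin 2 and thioredoxin reductase 2 from NADPH, which the transhydrogenase NNT helps to supply in the mitochondrial matrix. The adrenal cortex is known to depend on this chain, since loss of NNT or TXNRD2 in people is a recognised cause of glucocorticoid deficiency. C57BL/6J mice are known to carry a deletion within Nnt.

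Cells were grouped by clustering that left the 10 genes out, and a class was named from its marker genes. Of 8133 cells kept at 6 weeks, 4276 were adrenocortical-like, and of 9941 kept at 9 weeks, 2098 were, with median depths of 15518 and 14766.5 UMIs per cell. The cortical cells fell into 3 groups. Glomerulosa-type cells, which carry markers of the outer zone, numbered 1047 at 6 weeks and 1345 at 9 weeks, or 24.5% and 64.1% of cortical cells. Fasciculata-type cells, of the glucocorticoid-producing zone, numbered 1246 and 548, or 29.1% and 26.1%. Cyp2f2-high cells numbered 1983 and 205, or 46.4% and 9.8%. The zone names came from the marker lists counted next, so these counts describe the naming and do not test it. At both ages 11 of 12 glomerulosa markers were over 1.5-fold higher in glomerulosa-type than in fasciculata-type cells, and the other, Oprk1, was at 0. Of 10 fasciculata markers, 6 were lower in glomerulosa-type cells and 2, Mc2r and Akr1b7, were higher, so the outer group is defined by the first list more than by the second. The Cyp2f2-high group held the X-zone markers Akr1c18 (110.6 and 79.0 UMIs per 1000000 of the group, CPM) and Pik3c2g (25.7 and 73.6 CPM), which reached at most 0.75 CPM in the other cortical groups. Of the other listed X-zone markers, Abhd2 stood at 410 and 398 CPM there, against 398 and 369 CPM in fasciculata-type cells. Sbsn stood at 183 and 176 CPM against 191 and 140 CPM. Cyp17a1 and Slc6a3 were at 0 in the Cyp2f2-high group. Znrf3 itself stood at 44.8 CPM and 54.0 CPM in cortical cells, but the labels do not say which exons are floxed and 3′ reads need not cover them, so this level does not check the deletion. The libraries shared 26 barcodes among 18074 kept cells, and leaving those out moved no reported result.

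In GENCODE M21 on mm10, Mgst1 lies at chr6:138140316-138156755 on the plus strand, Gsta4 at chr9:78182774-78209349 on the plus strand and Cat at chr2:103453849-103485160 on the minus strand. The promoters of 8 of the 10 genes were in the RefSeq table of build GRCm38.p6. Nnt and Gsta4 had no entry. The bases before the start site are printed for Mgst1 and Cat, which are both far higher in the inner cortical groups than in the outer one, and for Txn2, which is higher in the outer one. Each is read 5′ to 3′ on the gene's own strand and ends at the base before the start site. Capitals mark a match to TGACNNNGC, the core of the antioxidant response element that NRF2 binds. The Mgst1 sequence is chr6:138140277-138140526 on the plus strand, that of Cat is chr2:103485154-103485403 on the minus strand, and that of Txn2 is chr15:77928995-77929244 on the minus strand.
Mgst1: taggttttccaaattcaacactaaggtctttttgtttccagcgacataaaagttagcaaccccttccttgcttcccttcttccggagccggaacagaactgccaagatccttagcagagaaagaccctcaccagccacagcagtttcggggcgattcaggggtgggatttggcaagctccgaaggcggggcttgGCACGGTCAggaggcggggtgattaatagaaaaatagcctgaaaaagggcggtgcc
Cat: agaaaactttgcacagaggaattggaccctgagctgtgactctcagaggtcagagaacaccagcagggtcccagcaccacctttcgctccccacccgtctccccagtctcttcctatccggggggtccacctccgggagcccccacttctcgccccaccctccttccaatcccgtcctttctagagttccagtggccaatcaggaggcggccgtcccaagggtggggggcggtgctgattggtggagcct
Txn2: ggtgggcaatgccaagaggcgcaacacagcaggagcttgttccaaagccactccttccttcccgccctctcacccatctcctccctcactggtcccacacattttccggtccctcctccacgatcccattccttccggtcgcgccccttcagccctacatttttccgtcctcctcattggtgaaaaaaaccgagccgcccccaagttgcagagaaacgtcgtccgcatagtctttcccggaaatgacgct
Both strands of the 300 bases from 250 before to 50 after each start were searched. TGACNNNGC was found in 12.4% of 32851 promoters and, among the 8 genes, only in Mgst1. There the match lies on the minus strand and begins 56 bases before the RefSeq start site. The GENCODE M21 start of Mgst1, chr6:138140316, lies within the printed bases and before the match, so the match is upstream of the RefSeq start only. Mgst1 has 2 entries, of which the printed one holds the match. The other, at chr6:138141337-138141636, holds none. AAGGTCA, the core site of nuclear receptors such as SF1, was found in 4.72% of promoters and in none of the 8. A match is a description, not a site or a cause. Over the same 300 bases, G and C made up 53.7% of the printed Mgst1 promoter and 43.0% of its other entry, 62.0% of the Cat promoter and 58.7% of that of Txn2.

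Adrenocortical-like cells, with all zones pooled, held the highest level of 9 of the 10 genes among the 8 cell classes at both ages. Gpx1 was the exception. Glomerulosa-type cells alone were below neutrophil-like cells in Mgst1 at 6 and 9 weeks (443 and 426 against 499.6 and 763 CPM). They were below macrophage-like cells in Cat (58.4 and 51.5 against 144 and 106 CPM). They were below monocyte-like cells in Sod2 (228 and 228 against 364 and 291 CPM). Their Gpx4 intervals overlapped the endothelial-like ones. Their Nnt, Prdx3, Txnrd2, Txn2 and Gsta4 stayed above all non-cortical classes. At 6 weeks, however, their Nnt interval of 19.2 to 24.2 CPM overlapped that of neutrophil-like cells, 0.761 to 22.7 CPM, which rests on 2 UMIs. Against the 3606 and 7485 cells of the other classes pooled, 9 genes were more than 1.5-fold higher in cortical cells and 1, Gpx1, was more than 1.5-fold lower, at 6 and at 9 weeks. Of all genes tested, 31.3% were higher and 26.2% lower in cortical cells at 6 weeks, and 38.4% and 23.0% at 9 weeks. The median log2 ratio of the 10 genes was 1.64 at 6 weeks and 1.73 at 9 weeks, against 0.13 and 0.32 over all genes tested. Nnt and Gsta4 met the minimum level for this comparison only through the cortical profile, so their place among the higher genes follows from that. The Gpx1 call at 6 weeks was close to the bound, at a log2 ratio of -0.59, and was lost under 5 alternatives. Levels are not compared between genes.

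In the thioredoxin chain, Prdx3, the matrix peroxiredoxin, reached 770.2 CPM (764 to 777) in cortical cells at 6 weeks and 719 CPM (709 to 728) at 9 weeks. No other class passed 71.4 CPM, which was T/NK at 6 weeks, and neutrophil-like cells were lowest at 9.43 and 22.1 CPM. The cortical level was 13.1 and 13.3 times that of the pooled other cells. Txn2, the matrix thioredoxin, stood at 309 CPM and 370.4 CPM in cortical cells and next highest in monocyte-like cells, at 113 and 129 CPM. Txnrd2, the reductase that recharges it, stood at 92.7 and 80.7 CPM, or 4.93 and 5.25 times the level of the other cells. In neutrophil-like cells at 6 weeks Txnrd2 had 0 UMIs among 318240, a count that allows up to 11.6 CPM. Nnt was counted in both libraries at a low level, 11.7 CPM (10.9 to 12.6) and 17.9 CPM (16.4 to 19.4) in cortical cells. Its 6-week interval overlapped those of neutrophil-like cells, at 6.28 CPM (0.761 to 22.7), and B-like cells, at 5.18 CPM (0.628 to 18.7), each resting on 2 UMIs.

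The Nnt level may be a partial count. Whether reads were lost was not tested, and the annotation release used for counting was not given. The symbol has 2 gene models that overlap on the minus strand of chromosome 13 in mm10, ENSMUSG00000025453 at chr13:119335448-119408997 and ENSMUSG00000116207 at chr13:119335528-119408952. In the GENCODE M21 annotation, 420 of the last 500 exonic bases of the first are shared with the second, and reads in shared sequence cannot be assigned to 1 gene. The first model held 1002 UMIs at 6 weeks and 865 at 9 weeks over all barcodes, and the second held 0. None of the other 9 genes shares a base of its last 500 with a gene on the same strand.

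Among the glutathione peroxidases and superoxide dismutase, Gpx4, which reduces lipid hydroperoxides in membranes, stood at 876 CPM (869 to 883) and 815 CPM (805 to 825) in cortical cells. Endothelial-like cells came next at 677 and 661 CPM, and dendritic-like cells were lowest at 185 and 175 CPM. Gpx4 was therefore only 2.25 and 2.88 times as high in cortical as in pooled other cells. Gpx1, the peroxidase of cytosol and mitochondria, went the other way, with 599 CPM (593 to 605) and 504 CPM (497 to 512) in cortical cells. Monocyte-like cells held 2318 and 2394 CPM of Gpx1, neutrophil-like cells 1555 and 1542 CPM, dendritic-like cells 1136 and 1156 CPM, and macrophage-like cells 1127 and 1045 CPM. Cortical cells ranked below those 4 myeloid classes and above endothelial-like cells (264 and 241 CPM) and T/NK (208 and 216 CPM). B-like cells stood at 383 and 490.4 CPM, and at 9 weeks their interval of 450.2 to 533 CPM overlapped the cortical one. Sod2, the manganese superoxide dismutase of the matrix, stood at 375 CPM (370.5 to 379.8) and 295 CPM (289 to 301) in cortical cells. Monocyte-like cells stood at 364 CPM (327 to 403) and 291 CPM (269 to 313), which overlapped the cortical interval at both ages.

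Mgst1, a membrane glutathione transferase of mitochondria and endoplasmic reticulum, stood at 2642 CPM (2630 to 2655) in cortical cells at 6 weeks and 1554 CPM (1540 to 1568) at 9 weeks. Neutrophil-like cells came next at 499.6 and 763 CPM, then monocyte-like cells at 377 and 528 CPM. Gsta4, the transferase that conjugates 4-hydroxynonenal, a product of lipid peroxidation, stood at 62.4 CPM (60.6 to 64.4) and 145 CPM (141 to 149) in cortical cells. In every other class Gsta4 stayed at or below 6.44 CPM, the endothelial-like level at 6 weeks. In monocyte-like cells at 6 weeks it had 0 UMIs, which allows up to 3.62 CPM. Cat, the peroxisomal catalase, stood at 243 CPM (240 to 247) and 110.4 CPM (107 to 114) in cortical cells. Macrophage-like cells held 144 and 106 CPM of Cat, and at 9 weeks their interval, 101.2 to 110.9 CPM, overlapped the cortical one.

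**Figure D1:**
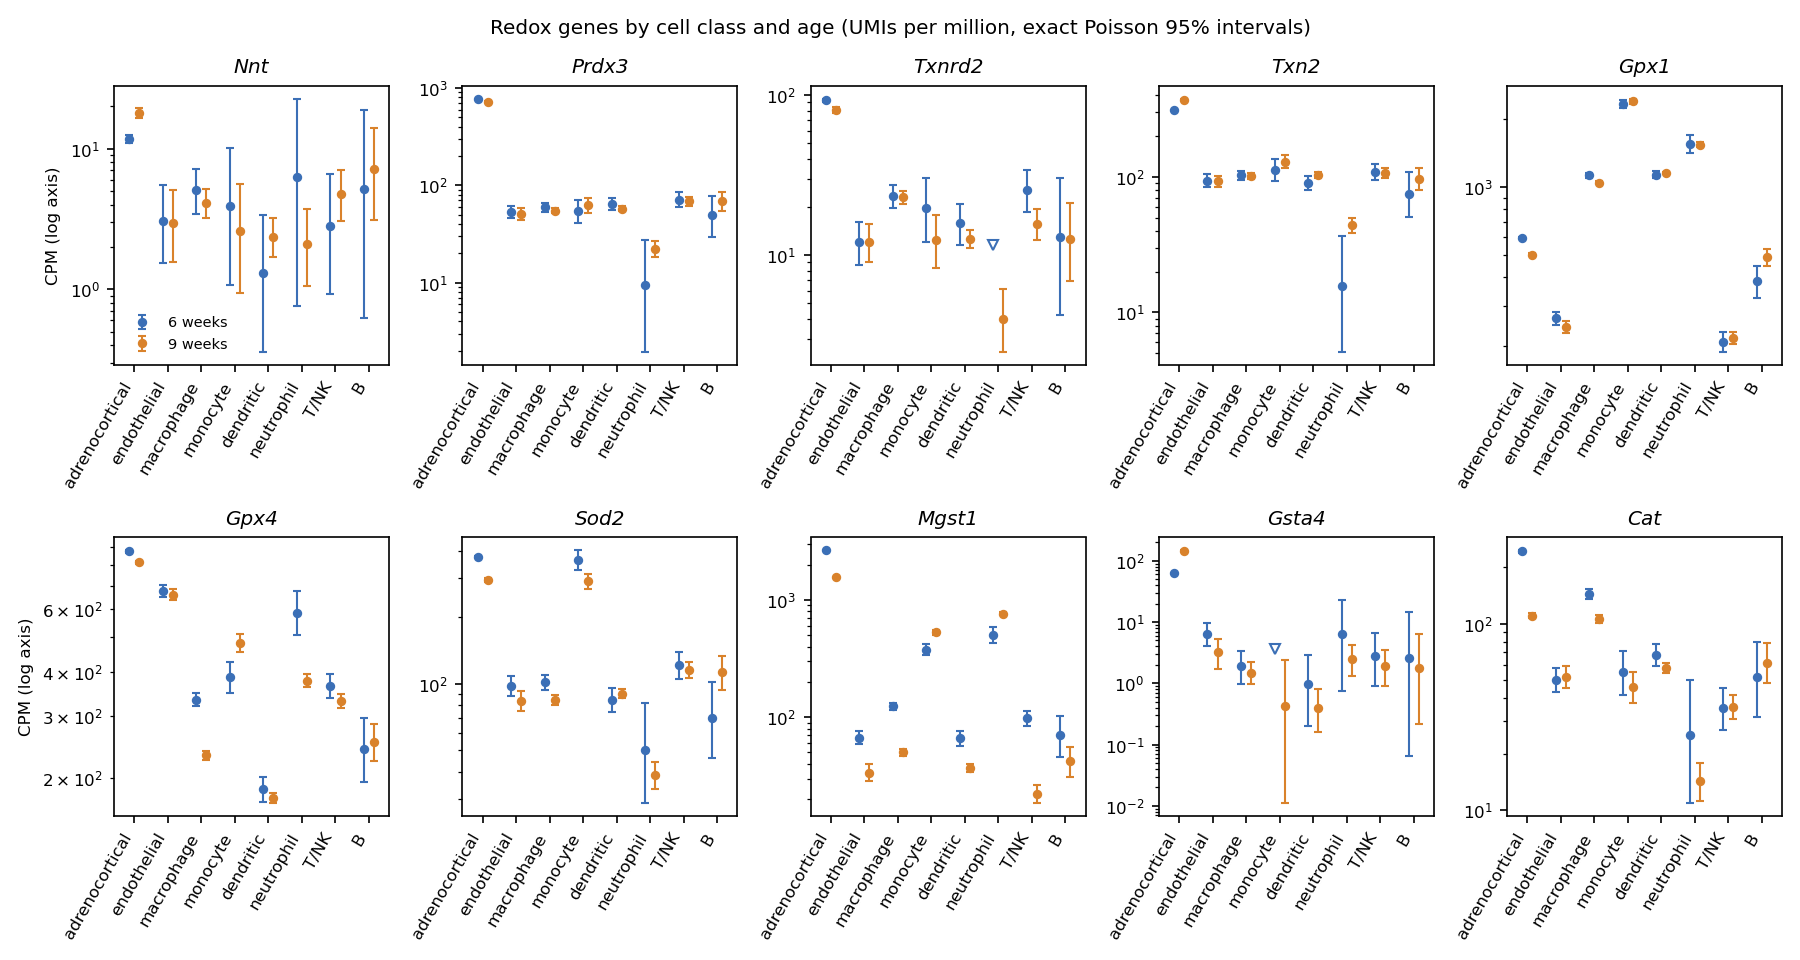
Level of each of the 10 genes in the 8 cell classes at 6 and 9 weeks, in CPM on log axes that differ between panels, with exact Poisson 95% intervals and open triangles for the upper limit where no UMI was counted. The cortical class, with all zones pooled, is highest for every gene except Gpx1, which peaks in monocyte-like cells at 2318 and 2394 CPM.

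The zones of the cortex divided the 10 genes. Mgst1, Cat, Sod2, Prdx3, Gpx1 and Gpx4 were lower in glomerulosa-type than in fasciculata-type cells at both ages, and Gsta4, Txn2 and Nnt were higher. At 6 weeks 3 of the 10 passed 1.5-fold upward and 4 downward in glomerulosa-type cells, where 16.4% of all genes tested were higher and 13.6% lower. At 9 weeks 2 passed upward and 5 downward, against 15.5% and 12.9%. The median log2 ratio of the 10 was -0.56 and -0.51, against 0.04 and 0.03 over all genes tested. Median depths were 13011 and 13377 UMIs per cell in glomerulosa-type cells and 15700.5 and 17449.5 in fasciculata-type cells.

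The largest of these differences was that of Gsta4. At 6 weeks Gsta4 stood at 252 CPM (244 to 261) in glomerulosa-type cells, 16.5 CPM (14.7 to 18.4) in fasciculata-type cells and 8.90 CPM (7.92 to 9.98) in Cyp2f2-high cells. At 9 weeks it stood at 238 CPM (231 to 245), 14.8 CPM (12.5 to 17.5) and 11.4 CPM (8.19 to 15.4). The outer level was therefore 15.3 times (13.2 to 17.7) the fasciculata-type level at 6 weeks and 16.0 times (13.2 to 19.7) at 9 weeks, with no overlap of intervals at either age. With each cell thinned to 2000 UMIs, 35.18% of glomerulosa-type cells at 6 weeks had a Gsta4 UMI (32.23% to 38.21%), against 3.17% of fasciculata-type cells (2.26% to 4.31%). The shares before thinning were 85.67% and 19.98%. In T/NK, the class used to gauge free RNA, 0 of 349 cells had one at 6 weeks, which allows up to 1.05%.

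Mgst1 and Cat ran opposite to Gsta4. Mgst1 stood at 443 CPM (433 to 455) and 426 CPM (416 to 435) in glomerulosa-type cells at 6 and 9 weeks, 2766 CPM (2743 to 2790) and 2782 CPM (2748 to 2816) in fasciculata-type cells, and 3501 CPM and 4054 CPM in Cyp2f2-high cells. Its fasciculata-type level was 6.24 times the outer level at 6 weeks and 6.54 times at 9 weeks. Thinned to 2000 UMIs, 99.27% of fasciculata-type cells at 6 weeks had an Mgst1 UMI (98.62% to 99.66%), against 53.56% of glomerulosa-type cells (50.43% to 56.67%) and 6.3% of T/NK (3.99% to 9.39%). The unthinned shares of the cortical groups were 99.2% and 94.36%. Almost every inner cell and about as many outer cells as not therefore showed Mgst1 at this depth.

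Cat stood at 58.4 CPM (54.5 to 62.5) and 51.5 CPM (48.3 to 54.9) in glomerulosa-type cells, and at 241 CPM (234 to 248) and 176 CPM (168 to 185) in fasciculata-type cells. Cyp2f2-high cells held most, 323 CPM (317 to 329) and 237 CPM (221 to 253). The fasciculata-type level was 4.13 times the outer level at 6 weeks and 3.42 times at 9 weeks. At 2000 UMIs per cell 35.45% of fasciculata-type cells and 9.78% of glomerulosa-type cells had a Cat UMI at 6 weeks, and 5.44% of T/NK did. Before thinning the shares of the cortical groups were 93.02% and 46.9%.

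Txn2, the electron donor of Prdx3, was highest in the outer group, and Prdx3 itself was lowest there. Txn2 stood at 488 CPM (476 to 500) and 436 CPM (427 to 446) in glomerulosa-type cells, 275 CPM (267 to 282) and 290.4 CPM (280 to 302) in fasciculata-type cells, and 253 and 245 CPM in Cyp2f2-high cells. The outer level was 1.78 times (1.69 to 1.87) the fasciculata-type level at 6 weeks. At 9 weeks the log2 ratio, computed with 5 CPM added to both levels, was 0.58, just inside the 1.5-fold bound. Prdx3 stood at 551 CPM (539 to 563) and 572 CPM (562 to 583) in glomerulosa-type cells, against 820.1 CPM (807 to 833) and 934 CPM (915 to 954) in fasciculata-type cells. Its log2 ratio of outer over inner was -0.57 at 6 weeks, just inside the bound, and -0.70 at 9 weeks, past it. Txnrd2 differed little by zone, with 82.0 and 75.1 CPM in the outer group and 97.0 and 90.8 CPM in fasciculata-type cells. Nnt stood at 21.6 CPM (19.2 to 24.2) and 22.2 CPM (20.1 to 24.5) in glomerulosa-type cells, against 9.15 CPM (7.86 to 10.6) and 11.8 CPM (9.72 to 14.2) in fasciculata-type cells, with no overlap. At 6 weeks Nnt met the minimum level only through the glomerulosa-type profile, so its place among the higher genes there follows from that.

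The dismutase Sod2 and both glutathione peroxidases were lower in the outer group. Sod2 was close to the same in the outer group at both ages, 228 CPM and 228 CPM, and stood at 394 and 371 CPM in fasciculata-type cells and 427 and 433 CPM in Cyp2f2-high cells. Gpx4 stood at 692 and 666 CPM in the outer group and 1014 and 1059 CPM in fasciculata-type cells, with log2 ratios of -0.55 and -0.66 that lie just inside and past the bound. Gpx1 stood at 415 and 449 CPM in the outer group, 637 and 579 CPM in fasciculata-type cells and 655 and 587 CPM in Cyp2f2-high cells. Its log2 ratio passed the bound at 6 weeks (-0.61), and at 9 weeks the outer level was 0.776 of the fasciculata-type level.

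**Figure D2:**
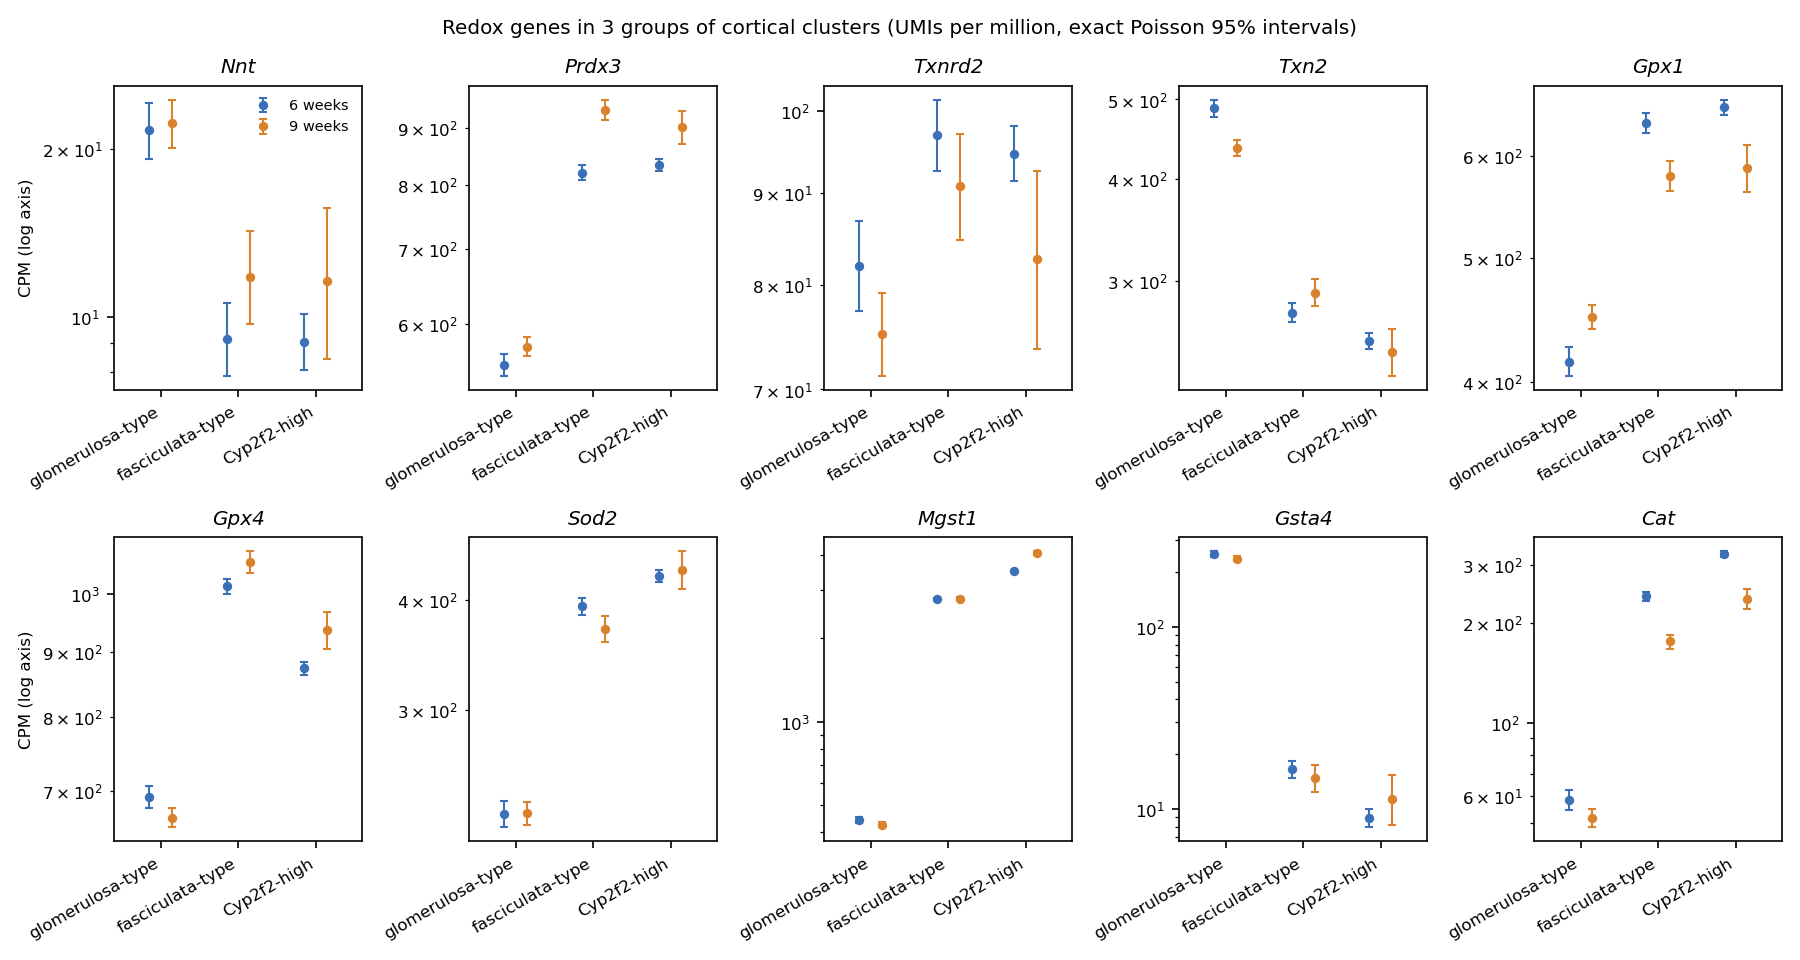
Level of each of the 10 genes in glomerulosa-type, fasciculata-type and Cyp2f2-high cortical cells at 6 and 9 weeks, in CPM with exact Poisson 95% intervals, each panel on its own axis. Gsta4, Txn2 and Nnt are highest in the glomerulosa-type group, and Mgst1, Cat, Sod2, Prdx3, Gpx1 and Gpx4 are lowest there.

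The inner groups resembled each other more closely. Mgst1 in Cyp2f2-high cells was 1.27 times (1.25 to 1.28) the fasciculata-type level at 6 weeks and 1.46 times (1.417 to 1.499) at 9 weeks. Cat was 1.34 times that level at both ages, and Gpx4 was 0.862 and 0.884 times. Gsta4 was 0.539 times (0.430 to 0.676) the fasciculata-type level at 6 weeks, and at 9 weeks the ratio of 0.766 had a range of 0.467 to 1.23 that includes equal levels. The glomerulosa-type group was itself mixed, of 3 clusters. Its largest, of 620 cells at 6 weeks and 723 at 9 weeks, held 566 and 535 CPM of Txn2 and 300.3 and 287 CPM of Gsta4. The next, of 426 and 609 cells, held 344 and 305 CPM of Txn2 and 163 and 172 CPM of Gsta4. Mgst1 ran the opposite way, at 362 and 323 CPM in the first and 596 and 528 CPM in the second. Cat did so too, at 48.6 and 42.5 CPM against 76.8 and 60.3 CPM. The last cluster, with S100a8 and S100a9 among its leading genes, had 1 cell at 6 weeks and 13 at 9 weeks and is not described.

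Between the ages, the cortical class as a whole held less Mgst1 and Cat and more Gsta4 at 9 weeks. Mgst1 was 0.588 (0.580 to 0.596) of its 6-week level, Cat was 0.454 (0.432 to 0.476), and Gsta4 was 2.32 times (2.19 to 2.46) its 6-week level. Of the 10 genes 1 was past 1.5-fold upward and 2 downward, where 7.92% of all genes tested were higher and 4.09% lower. The other 7 were within that bound. Nnt was 1.52 times (1.31 to 1.78) its 6-week level, which with the added 5 CPM is a log2 ratio of 0.45. Txn2 was 1.20 times, Sod2 0.786, Gpx1 0.842 and Txnrd2 0.871 of their 6-week levels, and Prdx3 and Gpx4 were at 0.933 and 0.930. The median of the 10 was -0.15 on the log2 scale, against 0.07 over all genes tested.

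The zone mix of the class also differed between the ages, and its part in these differences cannot be told apart from age with 1 library each. The glomerulosa-type share of cortical cells went from 24.5% to 64.1%, and the genes that were lower at 9 weeks, Mgst1 and Cat, are low in that group while Gsta4 is high in it. Within zones 0 of the 10 genes passed 1.5-fold in either direction. Of all genes tested 1.26% were higher and 0.447% lower at 9 weeks in glomerulosa-type cells, 1.37% and 0.765% in fasciculata-type cells, and 1.56% and 0.830% in Cyp2f2-high cells. The median log2 ratio of the 10 was -0.06, -0.04 and 0.06 in these groups, against 0.05, 0.06 and 0.04 over all genes tested. The count in the glomerulosa-type group depended on which cells were kept. With doublets kept, Mgst1 went from 803 to 512 CPM and Cat from 96.6 to 58.3 CPM in that group, and with only cells of at most 10% mitochondrial UMIs, Mgst1 went from 696 to 436 CPM and Cat from 85.7 to 52.8 CPM. All 4 of these differences passed 1.5-fold downward. The median mitochondrial share was 10.52% in glomerulosa-type cells at 6 weeks and 7.31% at 9 weeks, so the stricter limit left 528 cells at 6 weeks and 1034 at 9 weeks.

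By gene, Gsta4 in glomerulosa-type cells went from 252 to 238 CPM, 0.943 (0.886 to 1.00) of its 6-week level. Mgst1 was 0.959, 1.01 and 1.16 times its 6-week level in glomerulosa-type, fasciculata-type and Cyp2f2-high cells. Cat was lower at 9 weeks in all 3 groups, at 0.883 (0.773 to 1.01), 0.731 (0.676 to 0.790) and 0.732 (0.672 to 0.797). The range for the outer group includes equal levels and those for the inner groups do not. Txnrd2 was also lower in all 3, at 0.916, 0.936 and 0.874, with ranges that all include equal levels. In the smaller of the Cyp2f2-high clusters, of 60 and 37 cells, Cat went from 299.8 to 183 CPM, a log2 ratio of -0.70. Prdx3 in fasciculata-type cells was 1.14 times (1.10 to 1.18) its 6-week level. When the 5 cortical clusters with at least 20 cells at both ages were given the same weight in each library, Mgst1 went from 2282 to 2546 CPM, Gsta4 from 89.2 to 87.4 CPM and Cat from 212 to 161 CPM. The log2 ratios were then 0.16, -0.03 and -0.39. With this weighting 5 of the 10 genes had the opposite sign to that in the whole class: Mgst1, Gsta4, Prdx3 (0.13), Txn2 (-0.04) and Gpx4 (0.04).

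**Figure D3:**
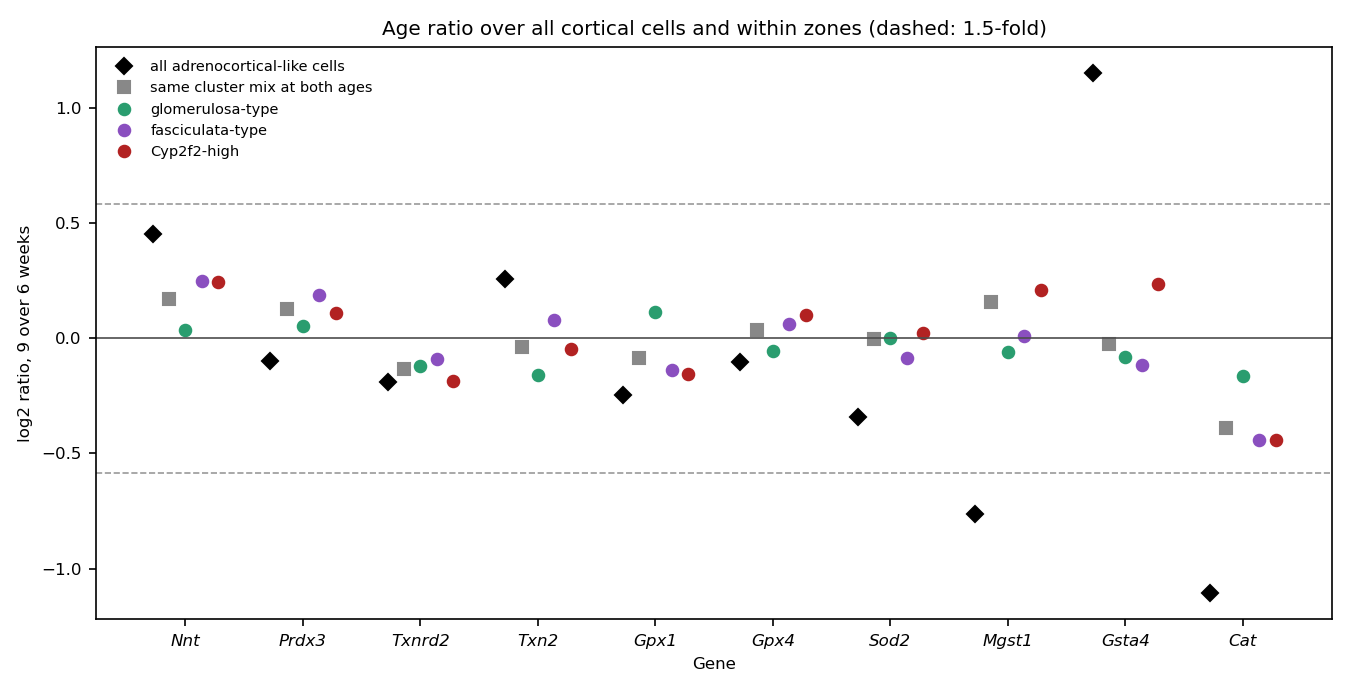
Log2 ratio of 9 over 6 weeks for each of the 10 genes, with 5 CPM added to both levels, in all cortical cells (diamonds), with the clusters weighted alike (squares) and within each zone group (circles); dashed lines mark 1.5-fold. The diamonds of Gsta4 (1.15), Mgst1 (-0.76) and Cat (-1.11) lie beyond the lines, and no circle does.

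RNA of immune cells was also counted more in cortical cells at 9 weeks. Summed over 9 immune genes, all above 0 at both ages, it went from 57.95 to 486.75 CPM in cortical cells, from 139.72 to 675.96 CPM in glomerulosa-type, from 39.44 to 215.37 CPM in fasciculata-type and from 34.11 to 232.58 CPM in Cyp2f2-high cells. Macrophage-like cells held 53147.48 and 63525.57 CPM of the same genes. The part of this RNA in the differences between ages was not tested.

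Outside the cortex, Mgst1 alone of the 10 genes passed 1.5-fold between ages in endothelial-like and in macrophage-like cells, where 8 of the 10 could be compared and Nnt and Gsta4 were too low. In endothelial-like cells it went from 66.9 to 33.6 CPM, with 1.35% of all genes tested higher and 1.28% lower. In macrophage-like cells it went from 124 to 50.1 CPM, with 1.48% higher and 2.60% lower. The median log2 ratios of the 8 genes were -0.05 and -0.18, against 0.01 and 0.03 over all genes tested. With macrophage clusters weighted alike, Mgst1 went from 105 to 55.1 CPM. Gpx4 in macrophage-like cells went from 333 to 231 CPM and Cat from 144 to 106 CPM, both within 1.5-fold. Transcripts of steroid synthesis and cholesterol uptake were used to gauge free cortical RNA, and the part of that RNA in the Mgst1 differences was not tested. The median of 8 such genes, as a share of the cortical level of the same library, went from 4.04% to 1.81% in endothelial-like and from 3.16% to 2.10% in macrophage-like cells, and that of Mgst1 went from 2.53% to 2.17% and from 4.70% to 3.22%. Among the 8, the lipoprotein receptor Scarb1 stood above the cortical level in endothelial-like cells, at 216% of it at 6 weeks. A free RNA share of 3.831% of the 6-week and 3.475% of the 9-week library profile was also subtracted. Endothelial-like cells were left with 0 CPM of Mgst1 at 6 weeks and 11.98 CPM at 9 weeks. The 6-week value is a floor, because the amount subtracted was more than the 66.9 CPM counted. No direction is read from this pair. After the same subtraction macrophage-like cells held 46.3 and 29.0 CPM of Mgst1, a log2 ratio of -0.59, still past the bound.

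Neutrophil-like and monocyte-like cells stood apart in this respect. Mgst1 there was 18.9% and 14.3% of the cortical level at 6 weeks, and 49.1% and 34.0% at 9 weeks, while the median of the 8 steroid genes was 3.41% and 1.10% at 6 weeks and 1.13% and 0.599% at 9 weeks. The neutrophil-like cells were not the same mix at both ages. A cluster present at both ages held 489 CPM (415 to 573) and 524 CPM (478 to 574) of Mgst1, and a cluster led by the granule genes Camp and Ngp, with 1 cell at 6 weeks and 355 at 9 weeks, held 812 CPM (785 to 839) at 9 weeks.

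**Figure D4:**
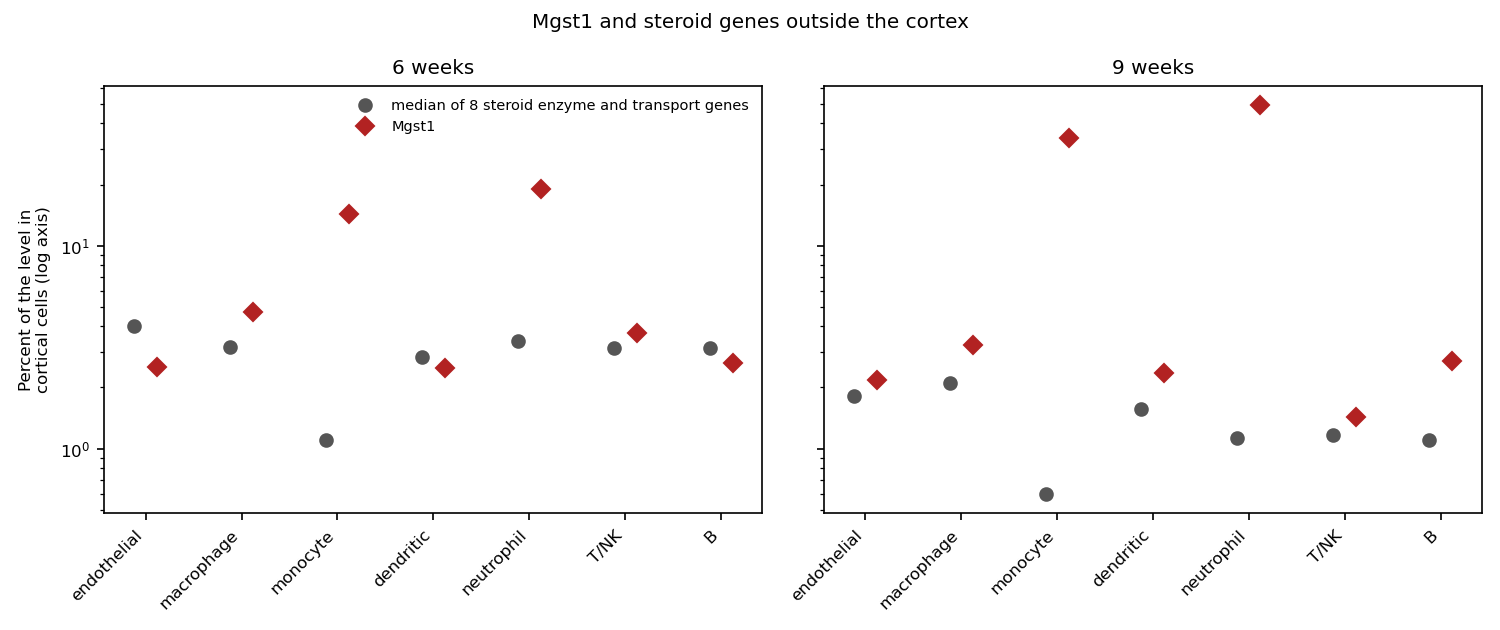
Mgst1 and the median of 8 steroid genes in 7 cell classes outside the cortex at 6 and 9 weeks, each as a percentage of the cortical level in the same library on a log axis. Mgst1 lies well above the steroid genes in neutrophil-like cells (18.9% and 49.1%) and monocyte-like cells (14.3% and 34.0%), and is at 1.43% to 4.70% of the cortical level elsewhere.

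Genes whose levels ran most like those of the 10 were sought by Pearson's r of log2(CPM + 5) over 16 points, the 8 classes at both ages, among 10029 genes. The points of an age share a library, so r is a description. Prdx3 ran most like Hspd1, the matrix chaperonin (r = 0.98), and Etfa, an electron transfer flavoprotein subunit (0.98), and Txn2 most like Tufm, the mitochondrial elongation factor (0.98). Sod2 ran most like the mitochondrial glutaredoxin Glrx2 (0.92) and Cox4i1, of cytochrome oxidase (0.92), and Txnrd2 most like Gatd3a (0.97). Gpx1 ran most like Csf2ra (0.94) and Hk2, the former a receptor subunit of myeloid cells. Gsta4 ran most like Ptn (0.99), Mgst1 like complement C3 (0.96), Gpx4 like Hipk3 (0.93), Nnt like Nt5dc3 (0.92) and Cat like Dhrs7b (0.90).

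The wider redox network was followed with 11 lists that together hold 126 genes. Over the cortical class, 5 of these genes were past 1.5-fold higher at 9 weeks and 12 lower, where 7.92% of all genes tested were higher and 4.09% lower. Glutathione transferases, which conjugate glutathione to electrophiles, held the largest number of these, in the longest list of enzymes. Of 16 tested, 2 were higher, Gsta4 and Gstt1 (13.7 to 41.4 CPM), and 5 were lower, Gstk1 of mitochondria and peroxisomes (541 to 195 CPM), Mgst2 (419 to 157 CPM), Mgst1, Gstm1 (687 to 383 CPM) and Gstm7 (106 to 60.5 CPM). The list of ferroptosis genes other than Gpx4 holds defence genes and also Acsl4 and Lpcat3, which promote it. Of 8 tested, 3 were lower. These were Aifm2, which reduces coenzyme Q (339.8 to 187 CPM), Gch1, of tetrahydrobiopterin synthesis (85.1 to 50.7 CPM), and Slc3a2, a subunit of the cystine importer (118 to 71.8 CPM). Slc7a11 of the same list was too low to be tested, at 0.015 and 0.319 CPM, so no change in cystine import is read from Slc3a2. Of 8 genes of the mitochondrial peroxiredoxin and thioredoxin system, 1 was lower, Glrx5, which acts in iron-sulfur cluster assembly (937 to 586 CPM). The cytosolic counterpart had 1 lower of 8, Prdx6 (562 to 369.8 CPM), and 1 of 10 other glutathione genes was higher, Gpx8 (77.5 to 120.2 CPM). Superoxide dismutases and catalase had 1 lower of 4, which was Cat.

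None of the 6 tested genes of mitochondrial NADPH supply, the 12 of NRF2 and its targets, the 22 nuclear-encoded genes of oxidative phosphorylation or the 15 markers of mitochondrial mass passed 1.5-fold between ages. The median log2 ratios of these 4 lists were 0.18, -0.18, -0.23 and 0.05, against 0.07 over all genes tested. Of 6 steroid P450 and electron donor genes 2 were higher, Cyp11a1, the side-chain cleavage enzyme (1092 to 2424 CPM), and Cyp11b2, aldosterone synthase (7.78 to 17.7 CPM), and 1 was lower, Cyp11b1, the 11β-hydroxylase (2639 to 1695 CPM). Within zones, none of the 126 passed 1.5-fold between ages in glomerulosa-type cells. In fasciculata-type cells Gstk1 was lower (581 to 356 CPM) and Cyp11a1 higher (941 to 1618 CPM). In Cyp2f2-high cells Gstm2 was lower (155 to 89.8 CPM) and Cyp11a1 again higher (359 to 768 CPM).

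By zone, the transferases differed in both directions, as did the dismutases and catalase, where 1 was higher and 3 lower of 4 in glomerulosa-type cells at both ages. Of 16 transferases tested, 5 were higher and 8 lower in glomerulosa-type than in fasciculata-type cells at 6 weeks, and 5 and 7 at 9 weeks. Over all genes tested the shares higher and lower were 16.4% and 13.6% at 6 weeks and 15.5% and 12.9% at 9 weeks. At 6 weeks Mgst2 stood at 478 CPM in fasciculata-type and 12.5 CPM in glomerulosa-type cells, and Gstk1 at 581 and 37.8 CPM. Gstt1 went the other way, at 4.32 and 55.6 CPM, as did Gstm2, at 187 and 481 CPM. The ferroptosis genes had 0 higher and 4 lower of 8 at both ages, namely the defence genes Aifm2, Gch1 and Slc3a2 and the promoting gene Acsl4. At 6 weeks Aifm2 stood at 369 CPM in fasciculata-type and 54.4 CPM in glomerulosa-type cells, Gch1 at 104 and 6.09 CPM and Acsl4, which readies polyunsaturated fatty acids for lipids, at 457 and 175 CPM. Of the dismutases Sod1 stood at 409 CPM in fasciculata-type and 177 CPM in glomerulosa-type cells and the secreted Sod3, higher in the outer group, at 100.5 and 185 CPM. Glrx5 was lower in the outer group, at 296 against 996 CPM, and so was Prdx6, at 267 against 569.7 CPM.

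Of the genes of mitochondrial content, those of oxidative phosphorylation had a lower median in the outer group, and the mass markers differed little by zone. Of 22 oxidative phosphorylation genes, 3 were lower in glomerulosa-type cells at 6 weeks and 4 at 9 weeks, with none higher. Their median log2 ratios were -0.49 and -0.39, against 0.04 and 0.03 over all genes tested. Of all genes tested, 16.4% were higher and 13.6% lower at 6 weeks, and 15.5% and 12.9% at 9 weeks. Of 15 mass markers 1 was higher and 1 lower at 6 weeks, and 0 and 1 at 9 weeks, with medians of -0.07 and -0.11. NRF2 and its targets had 1 higher and 6 lower of 11 at 6 weeks and 0 and 5 of 12 at 9 weeks, among them Taldo1 of the pentose phosphate pathway, at 769.9 CPM in fasciculata-type and 234 CPM in glomerulosa-type cells at 6 weeks. Against the pooled other classes, 14 of 16 transferases were higher in cortical cells at 6 weeks and 16 of 17 at 9 weeks, with 1 lower at each age. Of the mitochondrial peroxiredoxin and thioredoxin system 7 of 8 genes were higher at both ages, with 1 lower at 9 weeks. Oxidative phosphorylation had 20 and 18 of 22 higher and the mass markers 10 of 15 at both ages, with 1 mass marker lower at 9 weeks. Some other lists were more divided. The cytosolic peroxiredoxin and thioredoxin system had 2 higher and 2 lower of 8 at both ages. NRF2 and its targets had 4 higher and 3 lower of 12 at 6 weeks, and 3 and 2 at 9 weeks. Glutathione peroxidases, synthesis and recycling had 5 higher and 3 lower of 10 at 6 weeks, and 6 and 3 of 11 at 9 weeks. All 4 dismutases and catalase were higher at both ages. Of all genes tested 31.3% were higher and 26.2% lower in cortical cells at 6 weeks, and 38.4% and 23.0% at 9 weeks.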

How the data were processed

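The deposited values are whole-number counts of UMIs per gene and barcode that the authors had not normalized, 1 matrix per age. The submitters' processing notes name mm10 as the build and, as tools, Seurat (no version) and Cell Ranger 6.0.1. The annotation release was not given in the sources used here. The matrices held 8880 and 10812 barcodes with 97001752 and 99728879 UMIs at 6 and 9 weeks, and rows with the same symbol were summed. Barcodes with under 500 genes or over 25% mitochondrial UMIs were removed, then doublets called by Scrublet in scanpy 1.11.5 (475 at 6 weeks, 5.52%, and 586 at 9 weeks, 5.57%). This left 86491599 and 88777418 UMIs.

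Both libraries were clustered together without integration, on 2000 variable genes that held none of the 10 genes or the wider redox lists, with 30 principal components, 20 neighbours and Leiden resolution 1 (leidenalg 0.10.2, igraph 0.11.9), which gave 31 clusters. A class took its name from fixed markers, at least 3 of them found in 10% of a cluster's cells, unless another class reached 0.7 of its score. T and NK cells were joined. The scoring and its thresholds were chosen after seeing the data, and these rebuilt names may themselves cause differences from the study. A cluster mostly of 1 library may be that library and not a type.

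UMIs were summed per group and library and scaled to counts per 1000000 of that group (CPM), with exact Poisson 95% intervals. The range given for a ratio combines the bounds of both intervals. A gene was tested for fold at 10 CPM in 1 profile and 10 UMIs over both, and counted as past 1.5-fold from log2 ratios with 5 CPM added. Shares of cells were taken after thinning to 2000 UMIs, leaving out shallower cells (35 and 22 glomerulosa-type, 16 and 18 fasciculata-type, 55 and 79 T/NK), with exact Clopper-Pearson 95% intervals. The scripts were checked on simulated data. With 1 library per age there is no replicate and no test across samples.

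All 10 genes are named, and listed genes where past 1.5-fold between ages at 20 CPM or more, at most 4 a list. Cyp11b2, Gstm1, Gstm7 and the listed genes given by zone fall outside that rule and were chosen after their values were seen. The 10 genes and all lists were chosen with earlier results of these data known. Alternatives were another total, scaling, pseudocount, free RNA subtraction, cell filter, clustering and weighting, and leaving out shared barcodes, which was added after seeing the data.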

Additional observations from a re-analysis of the deposited data

Results flagged for a closer look

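Mgst1 differed in direction between cell classes over the same pair of ages. The log2 ratio of 9 over 6 weeks was -0.76 in adrenocortical-like, -0.90 in endothelial-like, -1.23 in macrophage-like, -0.77 in dendritic-like, -1.91 in T/NK and -0.67 in B-like cells, and 0.61 in neutrophil-like cells. Monocyte-like cells stood at 0.48, from 377 to 528 CPM, within 1.5-fold. The neutrophil-like value depends on a cluster with 1 cell at 6 weeks and 355 at 9 weeks, and in the cluster present at both ages Mgst1 went from 489 to 524 CPM. In CPM, dendritic-like cells went from 66.0 to 36.7, T/NK from 97.5 to 22.2, B-like cells from 70.0 to 42.1 and neutrophil-like cells from 499.6 to 763. With 1 library per age the difference between classes was not tested. The median of 8 steroid genes, as a share of the cortical level, was lower at 9 weeks in all of these classes outside the cortex, from 3.14% to 1.17% in T/NK and from 3.41% to 1.13% in neutrophil-like cells, and its part in the Mgst1 differences was not tested.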

How the results depend on the processing

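No paired analysis was possible because there was 1 library per age. Over 13 alternatives, 261 recomputed counts stayed within 1.5 times the reported count and 14 did not. The 6-week count of genes lower in cortical than in pooled other cells, 1 as reported (Gpx1), was 0 with the total taken without mitochondrial UMIs, with doublets kept, with at least 1000 genes per cell, with at most 10% mitochondrial UMIs and at Leiden resolution 0.5. With cortical clusters weighted alike, the counts between ages went from 1 higher and 2 lower to 0 and 0, and those of the wider redox genes from 5 and 12 to 0 and 0. The log2 ratios then changed sign for 5 genes, Mgst1 (0.16), Gsta4 (-0.0269), Prdx3 (0.13), Txn2 (-0.04) and Gpx4 (0.04), of which the first 2 had been past 1.5-fold. TMM scaling, which moves all ratios of the cortical class by 0.17, took the 12 wider redox genes to 19. In endothelial-like cells, 0 higher and 1 lower became 1 and 0 with free RNA subtracted, both times Mgst1. Its 6-week level was then a floor of 0, so the higher call gives no direction. In glomerulosa-type cells the genes lower at 9 weeks were 2 with doublets kept and 2 with at most 10% mitochondrial UMIs, against 0 as reported. Weighting clusters alike gives both libraries the same mix of the 5 cortical clusters with at least 20 cells at both ages. What caused the changes under any of the alternatives was not tested. The zone differences kept their direction, from -2.87 to -1.83 for Mgst1, from -2.10 to -1.38 for Cat and from 3.39 to 3.85 for Gsta4 at 6 weeks over 11 settings. At Leiden resolution 0.5 the fasciculata-type cells merged with the Cyp2f2-high cells, so no zone difference was computed there. Depth limits Nnt and Gsta4 outside the cortex and Txnrd2 in neutrophil-like cells. Zone groups rest on 205 to 1983 cells of 1 library each, so differences between animals, libraries and ages cannot be told apart.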
